A study of Mus musculus with 6 samples.

Results

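The 10 genes described here present peptides on major histocompatibility complex (MHC) class I, and they are 10 of the 24394 gene symbols listed in the series. They were chosen by name, as every line that the Cufflinks tables list under H2-K1, H2-D1, B2m, H2-T23, H2-M3, Tap1, Tap2, Tapbp, Psmb8 or Psmb9, with the abundance summed per symbol and library. RNA-seq was carried out on bone marrow-derived macrophages (BMMs) of C57BL/6 mice, cells grown from marrow monocytes for 7 days in medium with 50 ng/ml of the growth factor Mcsf. There were 3 control cultures and 3 cultures that received cartilage fragments at a ratio of 5 to 1 for 24 h, and both groups came from animals labelled postnatal day 28, with the marrow and the cartilage taken from the same mice. No gene was deleted and no other agent was added in either group. The labels do not say whether the 3 cultures of a group came from separate animals, so the p-values measure the spread between these cultures, which may be technical.

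Class I molecules display peptides from proteins made or taken up by the cell, and cytotoxic T cells read them. The proteasome cuts the peptides, and immune cells build in the inducible subunits Psmb8 and Psmb9. The transporter Tap1 and Tap2 carries the peptides into the endoplasmic reticulum, where Tapbp (tapasin) holds the transporter next to an empty heavy chain. Heavy chain, peptide and B2m (beta-2-microglobulin) then leave for the cell surface together. Interferons are the best known inducers of these genes, and macrophages are among the cells that present peptides to T cells.

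The files hold FPKM, a count of fragments corrected for transcript length and sequencing depth, so that levels can be compared between genes. The coverage listed beside each FPKM corresponded to 699131 to 776270 fragments per library, and a gene with few fragments is measured with a large counting error. The Methods state a far larger number of mapped reads per sample, and the fragment numbers given here rest on the lower value from the files. All 8 macrophage markers were expressed, with Lyz2 at 32511 ± 5117 FPKM (SD, n = 3) in control and 32334 ± 5222 FPKM in exposed macrophages. Adgre1 (log2 difference 0.59, limma adjusted p 0.00965) and Cd14 (0.63, limma adjusted p 0.0388) were higher after exposure. The call of Adgre1 was lost without exposed culture 1 or 2 (limma adjusted p 0.0827 and 0.0570) and that of Cd14 without any 1 of the 6 libraries (limma adjusted p 0.0570 to 0.202). Markers of dendritic cells, of T and natural killer cells and of B cells each summed to at most 8.003 FPKM in any library, with 6 of the 7 listed T and natural killer cell markers and 4 of the 5 listed B cell markers at 0 throughout, and no chondrocyte marker reached a mean of 1 FPKM. Neutrophil markers summed to between 783 and 914 FPKM in control and between 731 and 1075 FPKM in exposed libraries. S100a8 and S100a9 made up most of these sums, and Mpo and Elane averaged under 1 FPKM in each group. Fibroblast markers summed to between 155 and 169 FPKM in control libraries and to between 103 and 119 FPKM in exposed ones. Most of these sums was Col1a1 (means 79.0 in control and 47.8 FPKM in exposed) and Col1a2 (78.1 and 58.6 FPKM). Col3a1 averaged 3.14 and 1.73 FPKM and Dcn 2.79 and 3.52 FPKM, and Pdgfra and Lum stayed under 1 FPKM. The sums therefore do not count fibroblasts, and the part of such cells in the results below was not tested. Male mice are named in the Methods. Xist, the RNA that silences an X chromosome in female cells, was nevertheless listed at 19.8 to 23.6 FPKM in all 6 libraries, and Uty, Kdm5d, Eif2s3y and Ddx3y, which are on the Y chromosome, were at 0.

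Of the 10 members, 9 lie on chromosome 17, in or near the MHC, and B2m lies on chromosome 2. The heavy chains H2-K1 and H2-D1 are close copies of each other, with 91.5% identity over 1077 aligned bases of coding sequence. The longest run that both coding sequences share without a difference is 91 bases. It lies in exon 4 of 8 in both genes, at chr17:33997343-33997433 (H2-K1, minus strand) and chr17:35265911-35266001 (H2-D1, plus strand) of mm10, and is shown because it is nearly as long as one 100-base read.
Shared exon 4 run: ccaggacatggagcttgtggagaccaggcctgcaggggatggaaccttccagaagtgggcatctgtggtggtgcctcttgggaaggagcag
No stretch of 100 bases of the H2-K1 transcript was found, on either strand, in a transcript of another gene in GENCODE M21, whereas 4.64% of the 2003 such stretches of the H2-D1 transcript were, in H2-Q1, H2-T23 and other heavy chain genes. The share was 7.28% for H2-T23, 14.04% for Tapbp, 9.02% for Psmb9, 5.35% for Tap2 and 1.64% for Psmb8. It was 0 for B2m, H2-M3 and the Tap1 transcript searched. The shared stretches of Psmb9 were nevertheless found, on either strand, in transcripts of Tap1. Levels of the members with shared stretches, and of Tap1, can depend on how reads were divided between genes.

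The sequences before the transcription starts are shown for H2-K1, H2-D1, H2-M3 and B2m. They come from RefSeq on GRCm38.p6, the assembly behind mm10, which held a window starting at the deposited gene start for 9 of the 10 members, all except Tap2. Each gives the 250 bases before the start, 5' to 3' on the strand of the gene. Capitals mark matches, on either strand, to 4 short motifs. GGNGATTCC is the NF-kB site of class I enhancers, GAANNGAAA and GAAANNGAA are interferon response elements of different spacing, and GATTGG is a CCAAT box. The letters were chosen after these sequences had been read, and no match overlapped another.
H2-K1, chr17:34000334-34000583, minus strand: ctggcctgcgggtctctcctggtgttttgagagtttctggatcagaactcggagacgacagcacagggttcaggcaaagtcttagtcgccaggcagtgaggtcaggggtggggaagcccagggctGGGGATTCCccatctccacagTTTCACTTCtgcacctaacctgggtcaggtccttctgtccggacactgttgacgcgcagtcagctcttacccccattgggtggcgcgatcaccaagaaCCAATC
H2-D1, chr17:35262844-35263093, plus strand: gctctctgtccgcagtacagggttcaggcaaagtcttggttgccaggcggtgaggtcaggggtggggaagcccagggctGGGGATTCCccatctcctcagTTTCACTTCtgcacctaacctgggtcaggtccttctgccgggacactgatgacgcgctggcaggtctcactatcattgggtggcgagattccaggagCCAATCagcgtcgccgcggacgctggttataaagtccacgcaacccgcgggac
H2-M3, chr17:37269984-37270233, plus strand: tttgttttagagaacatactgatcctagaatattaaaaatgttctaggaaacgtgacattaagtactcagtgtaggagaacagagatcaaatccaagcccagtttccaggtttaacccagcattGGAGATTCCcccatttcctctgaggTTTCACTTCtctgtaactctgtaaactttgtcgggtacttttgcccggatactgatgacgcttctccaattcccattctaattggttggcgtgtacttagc
B2m, chr2:122147437-122147686, plus strand: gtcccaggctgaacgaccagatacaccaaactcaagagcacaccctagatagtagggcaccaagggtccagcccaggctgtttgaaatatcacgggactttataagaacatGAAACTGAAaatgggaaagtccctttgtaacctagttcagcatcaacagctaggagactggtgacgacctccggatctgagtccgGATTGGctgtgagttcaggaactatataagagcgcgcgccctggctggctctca
The windows of H2-K1 and H2-D1 were 88.7% identical over 203 aligned bases, against 67.1% (222 bases) for H2-K1 and H2-M3. GGNGATTCC and GAANNGAAA each matched in 3 of the 9 members with a window, namely H2-K1, H2-D1 and H2-M3. Among all 32851 windows of the same length, 0.664% held the first of these motifs and 6.31% the second. GAAANNGAA matched in B2m and H2-T23 and in 7.13% of all windows. GATTGG matched in 6 members (H2-K1, H2-D1, B2m, H2-T23, Tap1 and Psmb9) and in 14.6% of all windows. The windows of Psmb8, the member with the highest difference below, and of Tapbp held 0 matches to the 4 motifs. A match describes the letters only and is not a measurement of binding.

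Psmb9 and Tap1 start back to back on opposite strands, and the 225 bases between their starts serve as the upstream sequence of both. This interval, chr17:34187331-34187555, is given on the plus strand, which is that of Tap1, with the GATTGG match in capitals.
Psmb9 to Tap1 interval: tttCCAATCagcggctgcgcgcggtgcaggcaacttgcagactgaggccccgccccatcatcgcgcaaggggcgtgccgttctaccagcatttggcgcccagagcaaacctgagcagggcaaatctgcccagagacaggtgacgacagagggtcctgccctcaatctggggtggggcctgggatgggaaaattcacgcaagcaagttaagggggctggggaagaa
The interval held 61.3% G and C.

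None of the 10 members changed in expression past an adjusted p of 0.05 after exposure to cartilage fragments, and 0.366% of the 10393 genes tested did (38 genes, limma with Benjamini-Hochberg adjustment over all of them). An unadjusted p under 0.05 was found for 5 members, against 9.19% of all genes tested, and 2 members passed when fragments estimated from the coverage were used in place of FPKM, a reading in which 2.48% of all genes did. All 10 members reached the mean of 1 FPKM needed for the test. Levels of 5 of the 10 did not overlap between the groups, compared with 15.9% of all genes. Of these, H2-K1, B2m and Psmb8 lay above the controls (9.04% of all genes) and H2-D1 and H2-M3 lay below them (6.89%). With the FPKM of the unnamed transcripts described below added to their locus, 4 members did not overlap. The median log2 difference, exposed minus control, was 0.12 over the members and 0.00365 over all genes tested. In RNA from whole cultures, fewer cells of a type and less RNA per cell cannot be told apart. An exact permutation test of 3 libraries against 3 cannot give a p under 0.1.

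**Figure D1:**
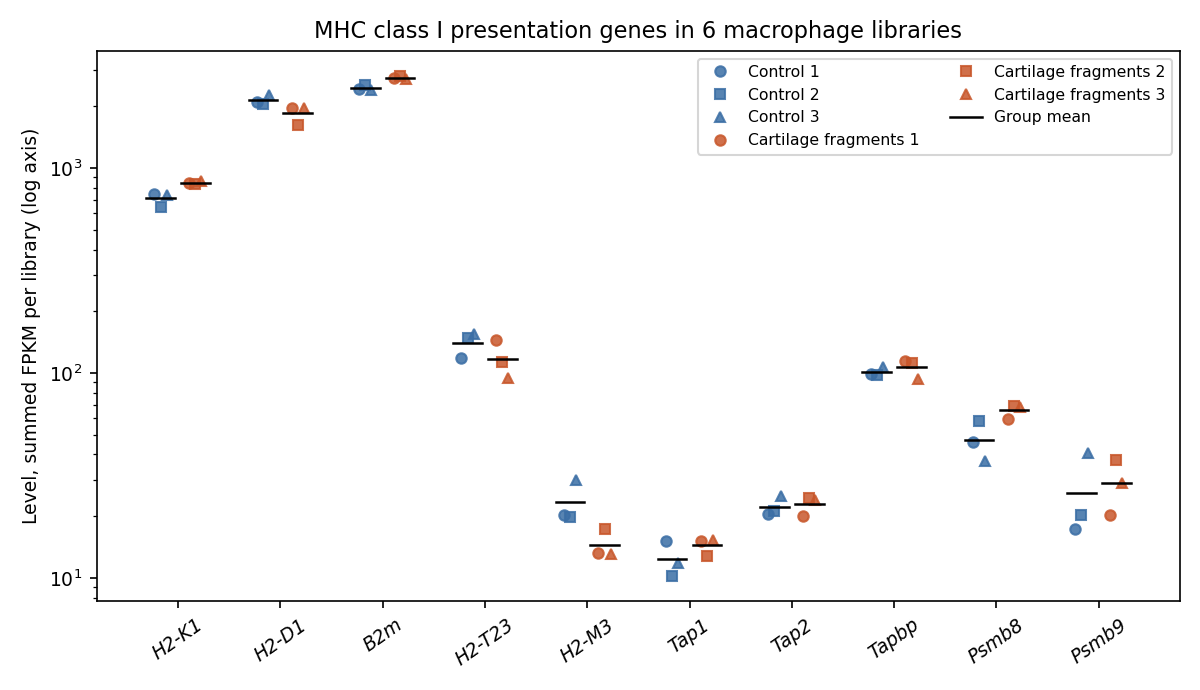
Summed FPKM of each member in each of the 6 libraries, on a log axis. Blue symbols are control and orange symbols exposed cultures, the marker shape gives the culture number, and black bars are group means (n = 3). B2m and H2-D1 stand at 1627 FPKM or more in every library, and Tap1 lies between 10.2 and 15.3 FPKM.

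In control macrophages the levels of the members ranged from 12.4 ± 2.52 FPKM (Tap1) to 2467 ± 76.2 FPKM (B2m). B2m was the most abundant, followed by H2-D1 and H2-K1, and all of these lay above the 99th percentile of the genes tested. H2-T23 and Tapbp came next, at 141 ± 19.2 and 101 ± 5.5 FPKM, then Psmb8 at 47.1 ± 10.4 FPKM. Psmb9 (26.0 ± 12.7 FPKM), H2-M3 (23.4 ± 5.80 FPKM) and Tap2 (22.2 ± 2.44 FPKM) followed, with SDs that exceeded the gaps between neighbours in this order. In exposed macrophages H2-T23 (117 ± 25.8 FPKM) and Tapbp (107 ± 11.4 FPKM) lay within each other's spread, as did H2-M3 (14.5 ± 2.37 FPKM) and Tap1 (14.4 ± 1.43 FPKM). All of these values are means and SDs of 3 libraries.

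H2-K1 (NM_001001892, chr17:33996012-34000333), a classical heavy chain, was listed at 751, 647 and 740 FPKM in the 3 control cultures and at 845, 838 and 859 FPKM in the exposed ones. Every exposed culture lay above every control. The log2 difference was 0.25 (SE 0.0658, 95% interval 0.10 to 0.41), a 1.19-fold higher level, with an adjusted p of 0.228 by limma. Read as fragments estimated from the deposited coverage, in place of FPKM, the difference was again 0.25 and the adjusted p by limma was 0.00454. The SE was then 0.0543, and 2.48% of all genes passed in that reading, 1.68% with a higher level in exposed macrophages. In control culture 2, a transcript of 1619 bases assembled without a name at the H2-K1 locus held a further 94.2 FPKM. This is 100 estimated fragments, beside the 703 of H2-K1 in that culture. The fragment reading left them out and was not repeated with them, so its adjusted p rests on that lower control. With the transcript added to the FPKM, that culture stood at 741 FPKM. The log2 difference was then 0.19 (SE 0.0443, limma adjusted p 0.177), and the groups still did not overlap.

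H2-D1 (NM_010380, chr17:35263094-35267497), the other classical heavy chain, was lower in value after exposure. Controls were at 2109, 2060 and 2263 FPKM, and exposed cultures at 1958, 1627 and 1965 FPKM. Exposed culture 2 was the lowest of all, and the groups did not overlap. The log2 difference was -0.22 (SE 0.0772, 95% interval -0.40 to -0.04), with a limma adjusted p of 0.423. In exposed culture 2 an unnamed transcript of 939 bases, assembled at chr17:35263473-35398172 and placed by Cufflinks in one gene with H2-D1, H2-L, H2-Q7 and H2-Q9, held 495 FPKM. H2-Q7 was listed at 0 in that culture and nowhere else. With the FPKM of the assembled transcript added to H2-D1, culture 2 stood at 2122 FPKM and the groups overlapped. The log2 difference was then -0.09 (SE 0.0512, limma adjusted p 0.650). The assembled transcript held 261 estimated fragments, beside the 1795 of H2-D1 in that culture. It is shorter than the H2-D1 transcript of 2102 bases, so each of its fragments adds more FPKM. The fragment reading left these fragments out, and whether the groups overlap in fragments with them was not tested. Which of the 4 genes these fragments came from was not tested.

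B2m (NM_009735, chr2:122147687-122153082), the light chain common to all class I molecules, was listed at 2443, 2553 and 2406 FPKM in control and at 2744, 2820 and 2725 FPKM in exposed macrophages. The exposed cultures lay above the controls with little spread in either group. The log2 difference was 0.16 (SE 0.0374, 95% interval 0.08 to 0.25), a 1.12-fold higher level, and its adjusted p by limma was 0.155. As estimated fragments it was 0.16 with an adjusted p of 0.0277 by limma, so that B2m and H2-K1 were the 2 members that passed in that reading. The FPKM of B2m lay outside the confidence interval that Cufflinks lists beside it in 5 of 6 libraries, and that of H2-D1 did in control culture 3 and exposed culture 2. The exception for B2m was control culture 1, where 0% of all expressed reference transcripts lay outside their interval. In the other libraries 0.949% to 1.08% did, and why that library differs was not tested.

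**Figure D2:**
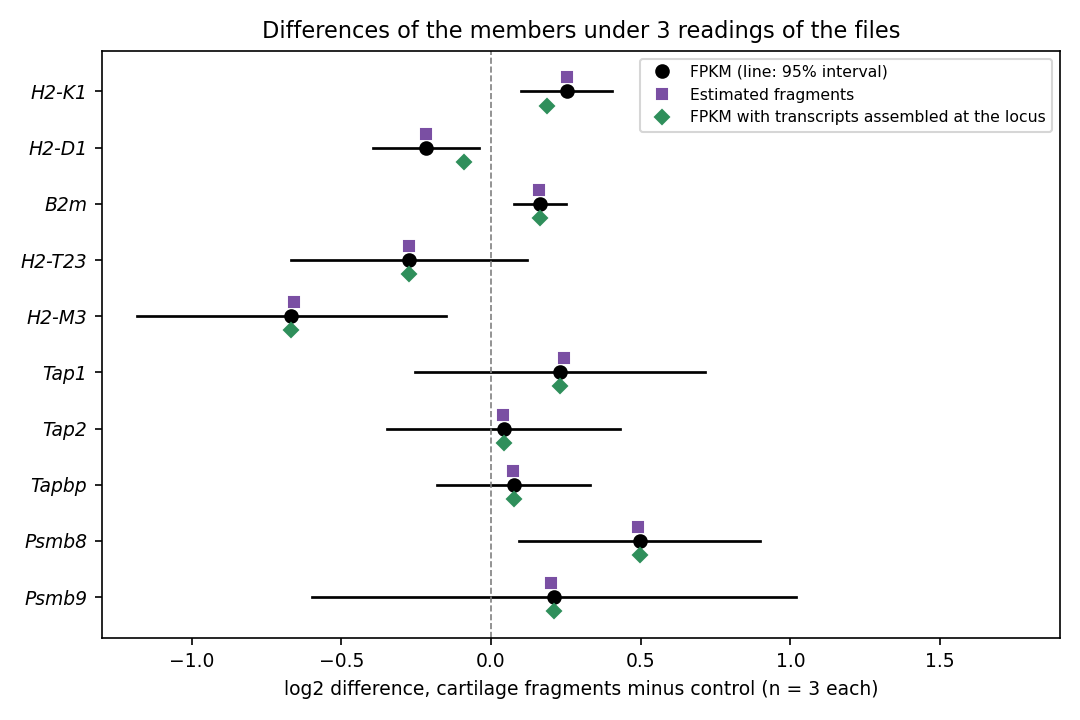
Log2 difference of each member, exposed minus control (n = 3 each), for FPKM with its 95% interval (black), for fragments estimated from the coverage (purple) and for FPKM with unnamed transcripts assembled at the locus (green). The green point moves towards 0 for H2-K1 (0.25 to 0.19) and H2-D1 (-0.22 to -0.09) and stays in place for the other members.

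The H2-K1 and H2-D1 levels were also compared within each library. H2-K1 stood at 0.356, 0.314 and 0.327 of H2-D1 in control cultures and at 0.432, 0.515 and 0.437 of it in exposed ones. The ratio was higher in all 3 exposed cultures, with a log2 difference of 0.47 and an exact two-sided permutation p of 0.1, the smallest this design allows. With the assembled transcripts added the control ratios were 0.356, 0.360 and 0.327 and the exposed ratios 0.432, 0.395 and 0.437. The groups then still did not overlap, and the log2 difference was 0.28 (exact permutation p 0.1). This ratio was added after the values of both genes had been seen.

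Summed, H2-K1 and H2-D1 came to 2860, 2707 and 3003 FPKM in control and to 2803, 2466 and 2824 FPKM in exposed macrophages. These sums overlapped, with means of 2857 ± 148 and 2698 ± 201 FPKM (SD, n = 3). With the assembled transcripts they were 2888 ± 104 and 2863 ± 85.6 FPKM. Relative to B2m, the summed heavy chains stood at 1.17, 1.06 and 1.25 in control and at 1.02, 0.874 and 1.04 in exposed cultures. That ratio was lower in all 3 exposed cultures by a log2 difference of -0.25, with an exact permutation p of 0.1. The difference was -0.18 with the assembled transcripts, and the groups did not overlap in either reading.

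**Figure D3:**
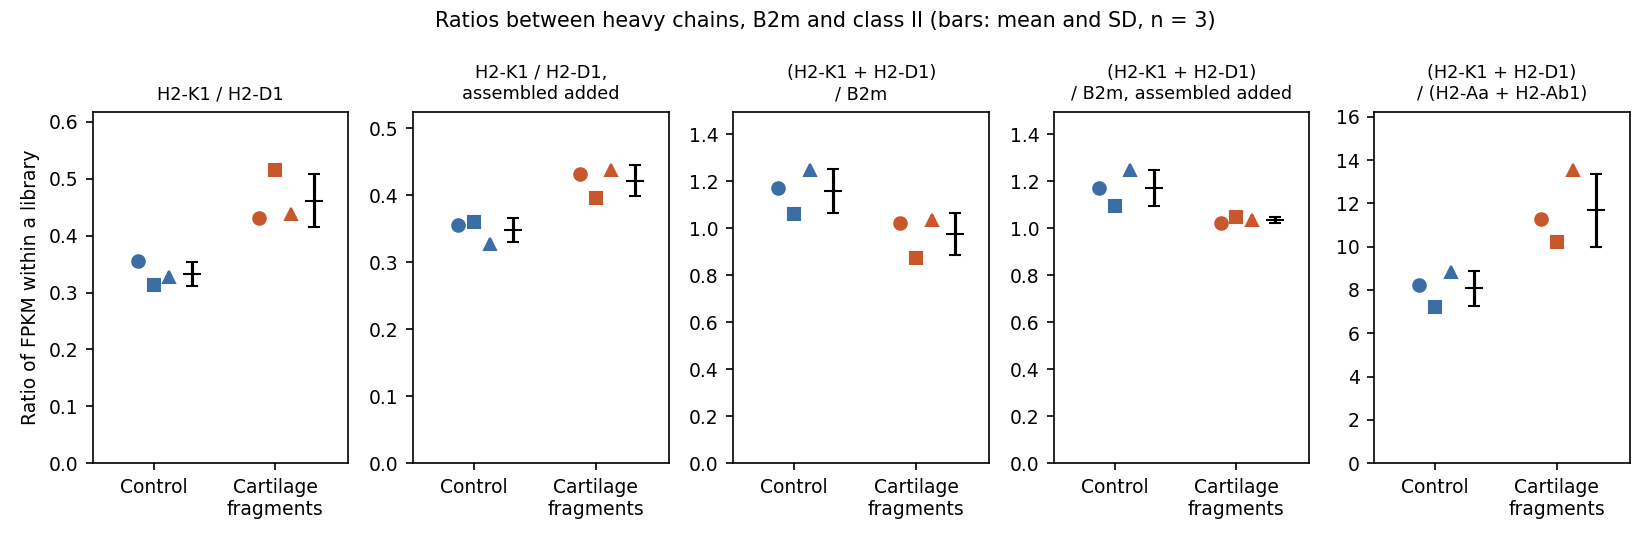
Ratios of FPKM within each library for control (blue) and exposed (orange) cultures, with mean and SD (n = 3) beside the points and all axes starting at 0. H2-K1 to H2-D1 is higher in the exposed cultures with and without the assembled transcripts (means 0.461 against 0.332 without and 0.421 against 0.348 with them), and heavy chains to B2m are lower (0.977 against 1.16 without them).

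H2-T23 (NM_010398, chr17:36029977-36032701) encodes Qa-1, a non-classical heavy chain that is known to show signal peptides of other class I molecules to natural killer cells. Its level was 119, 148 and 155 FPKM in control and 145, 113 and 94.5 FPKM in exposed macrophages. The groups overlapped, and the log2 difference of -0.27 had a 95% interval from -0.67 to 0.12 (limma adjusted p 0.683).

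H2-M3 (NM_013819, chr17:37270234-37274485) is a non-classical heavy chain that is known to bind formylated peptides of bacteria and mitochondria. It was listed at 20.2, 19.8 and 30.1 FPKM in control and at 13.2, 17.2 and 13.1 FPKM in exposed macrophages. All exposed cultures lay below all controls, control culture 3 being the highest. The log2 difference of -0.67 (SE 0.224, 95% interval -1.18 to -0.15) was the lowest of the members in value, with an adjusted p of 0.401 by limma. It rested on 64.4 estimated fragments over the control libraries and 38.4 over the exposed ones.

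Among 15 tested genes of 31 in a list of other class I and class I-like heavy chains, 0 passed the threshold by limma, and the median log2 difference was 0.02. Estimated fragments gave 0 as well, and 2 of the 15 had an unadjusted p under 0.05. Those 2 were H2-M2 and Cd1d1, named after their values were seen. Cd1d1, which presents lipids, was at 5.16 ± 0.566 FPKM in control and 8.98 ± 1.45 FPKM in exposed macrophages (limma adjusted p 0.314). H2-M2 was listed at 0 in all control cultures and at 5.08, 4.24 and 1.09 FPKM in the exposed ones (limma adjusted p 0.289). It reached the mean of 1 FPKM needed for the test only through the exposed cultures. Its p-value depends on the control zeros and on the 0.1 added to each value, so it is no support for a difference. Procr had the highest level of the list, at 66.0 ± 4.68 and 67.9 ± 6.73 FPKM. H2-Q4 was listed at 0, 28.9 and 0 FPKM in control and at 34.3, 36.2 and 58.7 FPKM in exposed macrophages. Its fitted difference, the highest of the list, depends on the zeros and on the 0.1 added to each value, and was 5.98 for FPKM (limma adjusted p 0.576) and 4.64 for estimated fragments (limma adjusted p 0.547). Control culture 2 was the only control in which H2-Q4 was listed above 0, and a fit without it has only zeros for controls. H2-Q7, at 0 in exposed culture 2, had the lowest difference of the list at -2.59 (limma adjusted p 0.798).

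Tap1 (chr17:34187556-34197225), one chain of the peptide transporter, was at 15.2, 10.2 and 11.7 FPKM in control and at 15.2, 12.7 and 15.3 FPKM in exposed macrophages. The groups overlapped, with a log2 difference of 0.23 (95% interval -0.25 to 0.72, limma adjusted p 0.787). In control culture 3 the whole value was placed on the isoform NM_001161730, and in the other 5 libraries on NM_013683. Tap2 (NM_011530, chr17:34204479-34216321), the other chain, was at 20.5, 21.1 and 25.0 FPKM in control and at 19.98, 24.5 and 24.0 FPKM in exposed macrophages. Its log2 difference of 0.04 had an interval from -0.35 to 0.43 (limma adjusted p 0.964).

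Tapbp (chr17:33919478-33929290) was at 98.7, 97.2 and 107 FPKM in control and at 115, 112 and 93.8 FPKM in exposed macrophages. The lowest value was that of exposed culture 3, and the groups overlapped. The log2 difference was 0.08 (95% interval -0.18 to 0.33, limma adjusted p 0.869). Both of its listed isoforms were used, NM_001025313 at 35.2 to 55.1 FPKM and NM_009318 at 42.4 to 72.2 FPKM over the 6 libraries.

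A list made for other genes of peptide loading and trimming gave 0 of 12 tested past the threshold by limma. The median log2 difference was 0.10, with 1 unadjusted p under 0.05. That 1 gene, Sppl2a, was at 35.8 ± 1.14 FPKM in control and 46.5 ± 4.38 FPKM in exposed macrophages. Sppl2a is a protease that cuts within membranes, and a part of it in class I loading was not tested. The log2 difference of Sppl2a, 0.37, was the highest of the list (limma adjusted p 0.423 for FPKM and 0.0413 for estimated fragments). Calr, the chaperone calreticulin, had the highest level, at 257 ± 16.0 and 286 ± 14.7 FPKM, and overlapped between the groups. Lnpep, a peptide-trimming enzyme of endosomes, had the lowest difference at -0.32 (limma adjusted p 0.650).

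Psmb8 (NM_010724, chr17:34198195-34201454), the inducible subunit that replaces Psmb5, was at 46.0, 58.0 and 37.3 FPKM in control and at 59.5, 69.0 and 68.3 FPKM in exposed macrophages. All exposed cultures lay above all controls, although exposed culture 1 exceeded control culture 2 by little. The log2 difference of 0.50 (SE 0.175, 95% interval 0.09 to 0.90), a 1.41-fold higher level, was the highest among the members. Its adjusted p was 0.423 by limma, on 109 and 144 estimated fragments over the 3 libraries of each group.

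Psmb9 (NM_013585, chr17:34182099-34187330), the inducible subunit that replaces Psmb6, was at 17.3, 20.2 and 40.6 FPKM in control and at 20.3, 37.5 and 29.0 FPKM in exposed macrophages. The spread within each group exceeded the gap between the group means, and control culture 3 was the highest. The log2 difference was 0.21 with an interval from -0.60 to 1.02 (limma adjusted p 0.885). It had the fewest fragments of the members, 35.1 over the control and 37.3 over the exposed libraries.

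Inducible and constitutive catalytic subunits were next compared within each library. Psmb8 stood at 0.380, 0.574 and 0.311 of Psmb5 in control and at 0.402, 0.535 and 0.448 of it in exposed cultures. Psmb9 was lower relative to Psmb6, at 0.126, 0.114 and 0.254 in control and 0.103, 0.196 and 0.191 in exposed cultures. Psmb10 stood at 0.464, 0.322 and 0.504 of Psmb7 in control and at 0.701, 0.525 and 0.427 in exposed cultures. All of these ratios overlapped between the groups. Their mean on the log2 scale was -1.75 ± 0.169 in control and -1.56 ± 0.156 in exposed macrophages (SD, n = 3), and the difference of 0.18 had an exact permutation p of 0.3. For named reference transcripts only, where Psmb10 loses an assembled transcript in control culture 3, and for estimated fragments of those transcripts, the difference was 0.32 and the groups did not overlap (exact permutation p 0.1).

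None of the other proteasome lists held a gene past the threshold by limma in FPKM or in estimated fragments. In the list of the remaining immunoproteasome subunit, the activator and assembly genes, 1 of 7 tested genes had an unadjusted p under 0.05, and the median log2 difference was 0.34. That gene was Psme2, a subunit of the interferon-inducible activator PA28, at 99.1 ± 5.64 FPKM in control and 134 ± 13.7 FPKM in exposed macrophages (log2 difference 0.43, limma adjusted p 0.200). Psme1, its partner in the activator, was at 93.9 ± 29.2 and 116 ± 13.6 FPKM, and Pomp, which assembles the particle, had the highest level at 160 ± 25.9 and 159 ± 14.8 FPKM. Psme2b, a copy of Psme2, was listed at 0 in all but 1 exposed culture, and Psme3 had the lowest difference at -0.02 (limma adjusted p 0.977). Of the constitutive subunits, 1 had an unadjusted p under 0.05, Psmb5, which lay above the controls (114 ± 11.3 and 143 ± 12.5 FPKM, limma adjusted p 0.413), while Psmb6 and Psmb7 overlapped between the groups. Psmb6 had the highest level of these subunits (158 ± 19.4 and 180 ± 24.4 FPKM) and Psmb7 the smallest difference (0.06).

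Of the 11 other subunits of the 20S core, 3 had an unadjusted p under 0.05, and the median was 0.13. Psma2 was the gene with the highest difference, at 66.5 ± 5.29 FPKM in control and 94.6 ± 3.36 FPKM in exposed macrophages (log2 difference 0.51, limma adjusted p 0.123). Psma1 had the highest mean over the 6 libraries (135 ± 8.24 and 144 ± 10.4 FPKM) and Psma5 the lowest difference (-0.11, limma adjusted p 0.888). The 18 subunits of the 19S cap, which feeds proteins into the core, had a median of -0.02 with 2 unadjusted p under 0.05. Psmd8 had the highest level of them, at 251 ± 27.1 and 210 ± 18.3 FPKM (limma adjusted p 0.519). The differences ran from -0.34 for Psmc3 (limma adjusted p 0.448) to 0.35 for Psmc5 (limma adjusted p 0.626), and for estimated fragments that of Psmc3 was 0.0079. In the list of 9 cytosolic peptidases, which trim or destroy proteasome products, 0 genes had an unadjusted p under 0.05, and the median was -0.07. Nrd1 had the highest mean over the 6 libraries (39.8 ± 5.32 and 36.8 ± 2.67 FPKM), Blmh the highest difference (0.39, limma adjusted p 0.584) and Thop1 the lowest (-0.63, limma adjusted p 0.742).

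**Figure D4:**
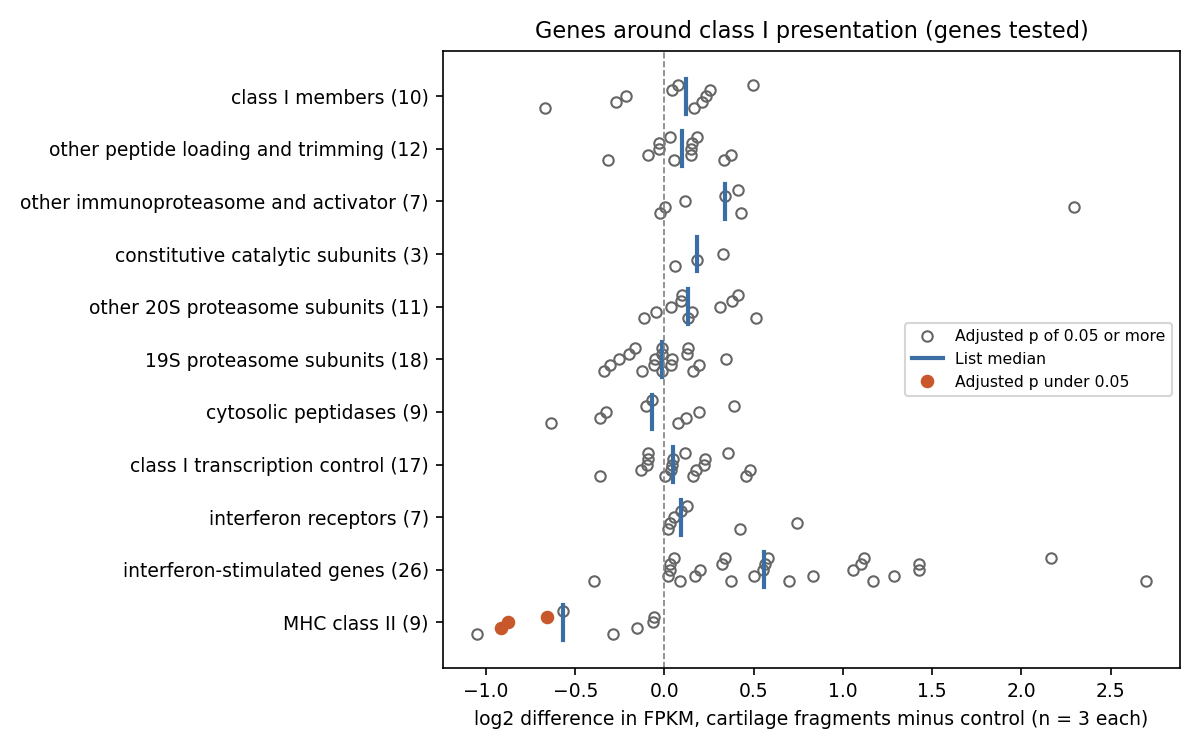
Log2 difference in FPKM, exposed minus control (n = 3 each), for every tested gene of 11 lists around class I presentation, with the number of tested genes in parentheses and the list median as a blue bar. Orange points, all in MHC class II, are the 3 genes past an adjusted p of 0.05 by limma, and the class I members have a median of 0.12.

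The genes that control class I transcription showed no separation between the groups. Of 17 tested genes, 0 passed the threshold by limma in FPKM or estimated fragments, 0 had an unadjusted p under 0.05 and all 17 overlapped, with a median log2 difference of 0.05. Nlrc5, the activator specific to class I genes, was at 6.17, 4.95 and 5.04 FPKM in control and at 5.37, 5.05 and 4.29 FPKM in exposed macrophages. Irf8, which had the highest level, was at 49.8 ± 5.13 and 49.9 ± 5.13 FPKM. Rfx5 had the highest difference of the list (0.48, limma adjusted p 0.751) and Rfxap the lowest (-0.36, limma adjusted p 0.824).

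Among the interferon receptors and their kinases, 0 of 7 passed by limma in either reading, and 1 had an unadjusted p under 0.05. This was Ifnar1, the receptor chain for type I interferon, at 16.6 ± 2.17 FPKM in control and 28.8 ± 10.3 FPKM in exposed macrophages (log2 difference 0.75, limma adjusted p 0.417). Ifngr1, a receptor chain for interferon gamma, had the highest level of this list, at 172 ± 3.38 and 189 ± 15.5 FPKM. In a list of 30 interferon-stimulated genes that holds no class I gene, 26 were tested. The limma count was 0 in FPKM and 0 in estimated fragments, with 4 unadjusted p under 0.05. The median log2 difference of the 26 was 0.56, with 25 higher and 1 lower in value after exposure. Without overlap, 7 lay above and 1 below the controls (9.04% and 6.89% of all genes). Some of these genes lie near the floor, such as Mx1 (0.700 ± 0.289 FPKM in control) and Oasl1 (0.698 ± 0.708 FPKM). Bst2, which tethers viruses at the cell surface, had the highest level of them, at 85.6 ± 3.88 and 129 ± 17.7 FPKM (log2 difference 0.58, limma adjusted p 0.123). Next in control level came Trim30a (36.1 FPKM), Irgm1 (30.9 FPKM), Oas1a (29.7 FPKM) and Irf7 (24.0 FPKM). Their log2 differences were 0.03, 0.08, 0.02 and 0.17, and all of them overlapped between the groups. Isg15 was listed at 0, 4.89 and 14.8 FPKM in control and at 14.7, 12.8 and 10.5 FPKM in exposed macrophages, and the groups overlapped. Its fitted difference, the highest of the list at 2.70 for FPKM (limma adjusted p 0.741), depends on the control at 0. It was 1.63 for estimated fragments, below the 1.67 of Oasl1. Oas3 had the lowest difference for FPKM (-0.39, limma adjusted p 0.566).

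MHC class II, which presents peptides of ingested proteins to helper T cells, was compared as the list most like the class I genes. Its lower level in exposed macrophages was known before the comparison with class I was chosen. Of 9 tested class II genes, 3 passed the threshold, all lower after exposure, and the median log2 difference was -0.57. With estimated fragments 5 passed, all lower, the others being H2-Aa (limma adjusted p 0.00738, and 0.113 for FPKM) and Ctss. Cd74, the invariant chain, fell from 373 ± 38.5 to 197 ± 15.4 FPKM (limma adjusted p 0.00965). H2-Ab1 (169 ± 6.87 and 107 ± 6.81 FPKM, limma adjusted p 0.0304) and H2-Eb1 (76.7 ± 7.36 and 41.6 ± 0.926 FPKM, limma adjusted p 0.0305) fell as well. The call of Cd74 was lost without exposed culture 1 or 2 (limma adjusted p 0.0625 and 0.0503), and those of H2-Ab1 and H2-Eb1 were lost without any 1 of the 6 libraries (limma adjusted p 0.0856 to 0.118 and 0.0533 to 0.155). Ctss, the protease that cuts Cd74, had the highest level of the list, at 4090 ± 64.0 and 3682 ± 90.6 FPKM (limma adjusted p 0.131 for FPKM and 0.00124 for estimated fragments). Ciita, the activator of class II genes, had the lowest difference at -1.05 (limma adjusted p 0.582). Within each library the sum of H2-K1 and H2-D1 stood at 8.22, 7.21 and 8.81 times the sum of H2-Aa and H2-Ab1 in control cultures and at 11.3, 10.2 and 13.5 times in exposed ones. This ratio was higher in all exposed cultures, by a log2 difference of 0.53, with an exact permutation p of 0.1. With the assembled transcripts the log2 difference was 0.60.

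Proteins taken up by a cell can also reach class I, a route called cross-presentation. Of its 8 tested genes, 0 passed the threshold by limma for FPKM, with 1 unadjusted p under 0.05 and a median of -0.04. The gene was Cybb, a subunit of the phagosomal oxidase that slows acidification, at 459 ± 24.3 FPKM in control and 558 ± 40.9 FPKM in exposed macrophages (log2 difference 0.28). Its adjusted p by limma was 0.244 for FPKM and 0.00419 for estimated fragments. Cyba, its partner, had the highest level at 806 ± 50.2 and 1169 ± 433 FPKM (limma adjusted p 0.635). Batf3, which dendritic cells need for cross-presentation, was listed at 0, 5.32 and 2.67 FPKM in control and at 2.67, 0 and 0 FPKM in exposed macrophages. The groups overlapped, and its fitted difference, the lowest of the list for FPKM, depends on the zeros (-1.92 for FPKM, limma adjusted p 0.816, and -0.89 for estimated fragments). Tap1 and Lnpep belong to this list as well as to the groups above.

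Lastly, the 3407 genes that averaged 20 FPKM or more were compared with the summed level of H2-K1 and H2-D1 over the 6 libraries. The 5 with the highest Pearson correlation of log2 levels were Wdr18 (0.979), Cdc26 (0.968), Eepd1 (0.964), Tbc1d15 (0.952) and Cotl1 (0.949). Over so few libraries, which share their depth between genes, this is a description only. All 5 had their lowest level in exposed culture 2, the library with the unnamed transcript at the H2-D1 locus. With the assembled transcripts added to the sum, the correlations of these genes were between -0.258 and 0.156.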

How the data were processed

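RNA-seq libraries of 3 control and 3 exposed macrophage cultures were analysed, grouped by the labels. The authors mapped paired-end reads of 100 bases with TopHat and Bowtie (build mm10), and Cufflinks was run per library. The deposited FPKM are given per transcript, for reference transcripts and for transcripts assembled in that library, with the Cufflinks confidence limits. The deposited coverage, a signal of mean read depth, is listed beside each FPKM. Versions are not given in the sources used here, and whether the normalization named in the Methods was applied to the FPKM cannot be told from the values.

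FPKM were summed per gene symbol, with assembled transcripts added to a gene where Cufflinks put them in a locus of 1 named gene. Genes that averaged 1 FPKM or more were tested on log2(FPKM + 0.1), a scale that understates the change of weakly expressed genes, in R 4.3.3 by limma 3.58.1 with trended and robust moderation of variances. Tests were two-sided, and p-values were adjusted over all genes tested (Benjamini-Hochberg, threshold 0.05). Fragments were estimated from coverage, transcript length and read length, with a length offset chosen in each library. The offset chosen put the most low values within 0.1 of a whole number. That share was 93.6% to 94.3%, and being fitted it is no independent check. Scaled to library depth, with 0.5 added, the estimated fragments served as an alternative. Single ratios were compared with exact two-sided permutation tests. Deposited starts were taken as 1-based after adding 1. Shared stretches and coding sequences came from GENCODE M21 (GRCm38), upstream windows from RefSeq (GRCm38.p6), and alignments from Biopython 1.88. Python 3.11.15, numpy 2.4.6, pandas 2.3.3, scipy 1.17.1 and matplotlib 3.10.9 were used. The fit was run on simulated data in which the spread between libraries, beyond counting error, was set at 5%. Whether the spread in the real libraries is that small was not tested, so the simulation does not vouch for the fit here.

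The members and gene lists were chosen with earlier results of these data known. The rule names all 10 members, list genes past the threshold, for a described list its highest-expressed gene and those with the highest and lowest difference, and the 5 genes most correlated with H2-K1 plus H2-D1. Other named genes were chosen after their values were seen. The assembled transcripts at member loci and the ratio of H2-K1 to H2-D1 were added after the values were seen. Alternatives changed the pseudocount, filter, scaling, transcripts, unit, moderation and replicate block, or left out each library in turn.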

Additional observations from a re-analysis of the deposited data

Results flagged for a closer look

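In exposed culture 2, a transcript without a gene name was assembled at the H2-D1 locus with 495 FPKM, a signal outside the lines named H2-D1 and with no counterpart at that locus in the 3 control cultures or the other exposed cultures. Adding its FPKM changed the log2 difference of H2-D1 from -0.22 to -0.09, and the fragment reading was not repeated with it.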

How the results depend on the processing

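Of all genes, 38 passed the threshold, and 17 did with reference transcripts only, 258 with estimated fragments, 18 with eBayes without trend and robust, and 8 to 30 when a library was left out. Of the members 0 passed, and 2 did with estimated fragments, H2-K1 (log2 difference 0.25, adjusted p 0.00454 by limma) and B2m (0.16, adjusted p 0.0277 by limma). The fragments of H2-K1 leave out the unnamed transcript at its locus in control culture 2, and those of H2-D1 the one in exposed culture 2. No other alternative moved a member past the threshold. The direction reversed for Tap2 without control culture 1 (-0.0119) or exposed culture 2 (-0.0112), with 0.136 as its highest value without a library, and for Psmb9 without control culture 1 (-0.0307), with 0.583 as its highest. The other 8 members kept their direction under all 17 alternatives. The ratios kept their direction under every alternative run. The difference in the ratio of inducible to constitutive subunits was 0.0994 to 0.281 when a library was left out (lowest without exposed culture 2, highest without control culture 3) and 0.316 with reference transcripts only. With the replicate number as a block, 18 genes and 0 members passed. The exact sign-flip p of the block was 0.25, the smallest that 3 pairs can give, for the ratios of heavy chains to B2m (-0.25) and class I to class II (0.53), where the exact permutation p without it was 0.1. For inducible to constitutive subunits (0.18) it was 0.5 with the block and 0.3 without. Deviations of same-numbered cultures correlated at -0.0792, 0.176 and 0.0988 over 3409 genes, only that of number 2 being over 0.1. Differently numbered cultures ran from -0.3005 (control 2 with exposed 3) to 0.208 (control 1 with exposed 3). The labels do not say what cultures of one number share. The fewest fragments were those of H2-M3, Tap1, Tap2, Psmb8 and Psmb9, and a p above the threshold does not show that levels were alike.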
